A study of Rattus norvegicus with 22 samples.

Results

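The transcripts described here encode the subunits of the AMPA and kainate classes of ionotropic glutamate receptor. The members were taken by exact gene symbol, as Gria1 to Gria4 for the AMPA class and Grik1 to Grik5 for the kainate class, and all 9 were present among the 17310 symbols of the count files. RNA from the nucleus accumbens (NAc) of 22 male Wistar rats was sequenced, 1 rat per library, in 2 experiments. In experiment 1, 5 rats could choose between water and a 6% (v/v) ethanol (EtOH) solution at all times for 8 weeks, while 5 rats received only water. In experiment 2, 6 rats had the same choice for 4 weeks, then received EtOH by stomach tube for 3 weeks, at 2.5 g/kg in a 30% (v/v) solution and 2 doses a day, and then had the choice again for 2 weeks. The other 6 rats had the choice over the same period and received water by stomach tube for 3 weeks, and whether bottles with EtOH stayed in place during gavage is not spelled out. The controls of experiment 2 therefore also drank EtOH, and its comparison concerns the gavage and not the drinking. The rats were outbred, the core and shell of the NAc were dissected together, and experiment 2 had no rats on water only.

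Both classes form channels of 4 subunits that open when glutamate binds, and AMPA receptors carry most of the fast excitatory current at synapses. The projection neurons of the NAc receive such input from cortex, hippocampus, amygdala and thalamus. GluA2, the product of Gria2, keeps calcium from passing through the AMPA receptor once its RNA has been edited, so receptors without it are calcium-permeable, and changes in their number in the NAc are a recurrent subject of addiction research. In the kainate class, GluK1 to GluK3 can form channels on their own, whereas GluK4 and GluK5 bind glutamate with higher affinity and work only together with them.

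The reads assigned to genes numbered 2962291 to 5247386 per rat in experiment 1, and 6713617 to 8765472 in experiment 2. No pair of rats in a group had counts as alike as repeated draws from 1 library would be. The members were counted from 809 reads in all for Grik1 to 61311 for Gria2 in experiment 1, and from 1750 reads for Grik1 to 210597 for Gria2 in experiment 2. Levels of different subunits are not ranked, because no transcript lengths were given with the reference tables. Levels are not compared between the experiments either, since their libraries differed in preparation, strandedness and read length. The nongenic share is the percentage of reads counted to no feature among those plus the reads assigned to genes. It was 48.4% to 51.1% in experiment 1 and 46.1% to 58.0% in experiment 2. Because the counting options were not given, it may include reads inside genes, such as those in introns. In experiment 2 the first principal component of log2 CPM (counts scaled to a common library total) held 74.0% of the variance, and EtOH gavage replicates 1 and 2 and water gavage replicate 1, the 3 rats with the highest nongenic share (58.0%, 56.4% and 54.5%), lay at one end of it. In experiment 1 the first component held 26.0%.

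Markers of striatal projection neurons were abundant in every library. The dopamine receptor transcript Drd1 had a median of 310 CPM in experiment 1 and 533 CPM in experiment 2, and Ppp1r1b, which encodes DARPP-32, had 986 and 1222 CPM. Markers of cortical excitatory neurons differed widely between rats. Slc17a7, which encodes the vesicular glutamate transporter of cortical neurons, ranged from 79.7 to 593 CPM in experiment 1 and from 0.139 to 437 CPM in experiment 2. Of the 7 cortical markers, 6 were listed and 5 tested in each experiment. Their summed level was 189 to 773 CPM in water controls and 284 to 725 CPM in EtOH rats of experiment 1, and 5.57 to 554 CPM after water gavage and 5.51 to 416 CPM after EtOH gavage. The amount of a transcript in such tissue cannot be divided into fewer cells of a type and less RNA per cell.

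Experiment 1 asked whether modest voluntary EtOH drinking altered expression in the NAc. All 4 AMPA subunit transcripts had a higher fitted level in EtOH rats and all 5 kainate subunit transcripts a lower one, where 50.5% of all genes tested were lower. The signs of Gria3, Gria4, Grik2 and Grik3 changed when single rats were left out. By edgeR's quasi-likelihood test no member had a false discovery rate (FDR) below 0.05, and neither had any other of the 8655 genes tested (0% of genes, and 0 by DESeq2). The differences were small, with log2 fold changes (EtOH minus water) from -0.20 for Grik1 to 0.12 for Gria1. Grik5 was the member with an unadjusted P-value under 0.05, or 1 of 9 members, where 5.58% of all genes tested had such a P-value and 2.58% had one with a lower level in EtOH rats.

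Gria1 encodes GluA1, the subunit whose insertion at synapses is best known from long-term potentiation. Its normalized counts (counts divided by the rat's effective library size and multiplied by the mean of the experiment) were 960.15, 955, 1046, 1259.95 and 1183 in the 5 water controls and 1155, 1293, 1185, 1109 and 1117 in the 5 EtOH rats. All EtOH rats lay above 3 of the controls, and the groups overlapped. The mean was 1081 ± 136 (SD, n = 5) in controls and 1172 ± 74.4 (SD, n = 5) in EtOH rats (log2 fold change 0.12, SE 0.080, FDR 0.914).

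Gria2 had 6249, 5415, 6273, 6292 and 5819 normalized counts in the controls and 6544, 6929, 6049, 6074 and 5847 in the EtOH rats. The groups overlapped between 5847 and 6292, with 2 controls below and 2 EtOH rats above that range. Its log2 fold change was 0.066, with a 95% interval of -0.067 to 0.20 and an FDR of 0.945. Gria3, which encodes GluA3, had a log2 fold change of 0.069 (95% interval -0.17 to 0.31). Its counts ran from 1202 to 1902 in controls and from 1358 to 1851 in EtOH rats. Gria4, which encodes GluA4, was the AMPA member nearest to 0, with a log2 fold change of 0.043 (95% interval -0.13 to 0.21). It had 563 ± 24.7 normalized counts (SD, n = 5) in controls and 579.8 ± 71.9 (SD, n = 5) in EtOH rats.

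Grik5 encodes GluK5, a subunit of the high-affinity pair. It had 1058, 1015, 1025, 1066 and 1018 normalized counts in the water controls and 1021, 862, 933, 906 and 941 in the EtOH rats. All but 1 EtOH rat lay below every control, and that rat, at 1021, exceeded the 2 lowest controls. The mean was 1036 ± 23.6 (SD, n = 5) in controls and 933 ± 58.0 (SD, n = 5) in EtOH rats (log2 fold change -0.15, SE 0.056, 95% interval -0.27 to -0.032). The unadjusted P-value of 0.0164 in edgeR's quasi-likelihood test corresponded to an FDR of 0.861 and to rank 159 of the 8655 genes. An exact permutation test of the log2 CPM values of this gene alone (two-sided) gave p = 0.0238, where 5 rats against 5 can reach 0.00794. The value stayed below 0 under all 19 alternative settings, from -0.19 to -0.13, with FDRs of 0.463 or more and unadjusted P-values under 0.05 in 17 of them.

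Markers of other cell types were compared between the same groups. Of the 5 neuroblast markers (Dcx, Dlx1, Dlx2, Sox11 and Cd24) 3 were tested, and all 3 were higher in EtOH rats with an unadjusted P-value under 0.05 (no FDR below 0.05). Of all genes tested, 3% were higher with such a P-value. The 3 markers tested, Dcx, Dlx1 and Cd24, are among the study's top genes by P-value for these same rats, so they add no separate evidence. The summed level of the list was 208 to 278 CPM in controls and 280 to 391 CPM in EtOH rats, with 0 markers at 0 in all rats. Of 5 endothelial, pericyte and fibroblast markers, 3 were higher with such a P-value, and the sum was 253 to 298 CPM in controls and 277 to 338 CPM in EtOH rats. Of the 5 interneuron markers tested 2 were lower with such a P-value, as were 2.58% of all genes tested, and 2 had a higher fitted level. Their list sum was 283 to 358 CPM in controls and 267 to 365 CPM in EtOH rats. Npy of that list had 0 counts in every rat of both experiments. Whether its reads could be counted under that symbol is not known, so absence from the tissue is not implied. Of the 10 markers of striatal projection neurons, 9 had a lower fitted level in EtOH rats (median log2 fold change -0.24), 1 of them, Drd1, with an unadjusted P-value under 0.05 (log2 fold change -0.50). Their sum overlapped widely, at 3319.7 to 5712 CPM in controls and 2965 to 5767 CPM in EtOH rats. Single markers with such a P-value were also Cux2 of cortical neurons (-0.70), Pdgfra of oligodendrocyte precursors (0.30) and Gjb6 of astrocytes (0.48), and the lists of oligodendrocytes and microglia had 0. Cux2 and Pdgfra are also among the study's top genes for these rats. The other 4 cortical markers tested had a higher fitted level in EtOH rats, and the median log2 fold change of the 5 was 0.25. In experiment 2 the 4 endothelial, pericyte and fibroblast markers tested were all lower after EtOH gavage (median log2 fold change -0.35). The 3 neuroblast markers tested were all higher there (median 0.36), and neither list had such a P-value. Adora2a of striatal projection neurons had one (log2 fold change -0.54, FDR 0.675 by edgeR), as did 1.33% of all genes tested in experiment 2. The part of these cell types in the values of Grik5 and the other members was not tested.

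The other member of the high-affinity pair, Grik4, had 117, 139.8, 141, 112 and 139.9 normalized counts in controls and 126.1, 119, 109.9, 105 and 121 in EtOH rats. The 3 highest values were all controls, and the groups overlapped. Its log2 fold change was -0.18 (SE 0.105, FDR 0.898). Grik1, the rarest member by counted reads, had 85.3 ± 23.3 normalized counts (SD, n = 5) in controls and 75.8 ± 22.8 (SD, n = 5) in EtOH rats. Its 95% interval of -0.66 to 0.27 on the log2 scale was the widest of the members in this experiment. Grik2 differed by -0.029 and Grik3 by -0.026 on the log2 scale, with intervals of -0.22 to 0.16 and of -0.34 to 0.29. For Grik3, control replicate 1 had 96.4 normalized counts while the other controls had 165 to 192.

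**Figure D1:**
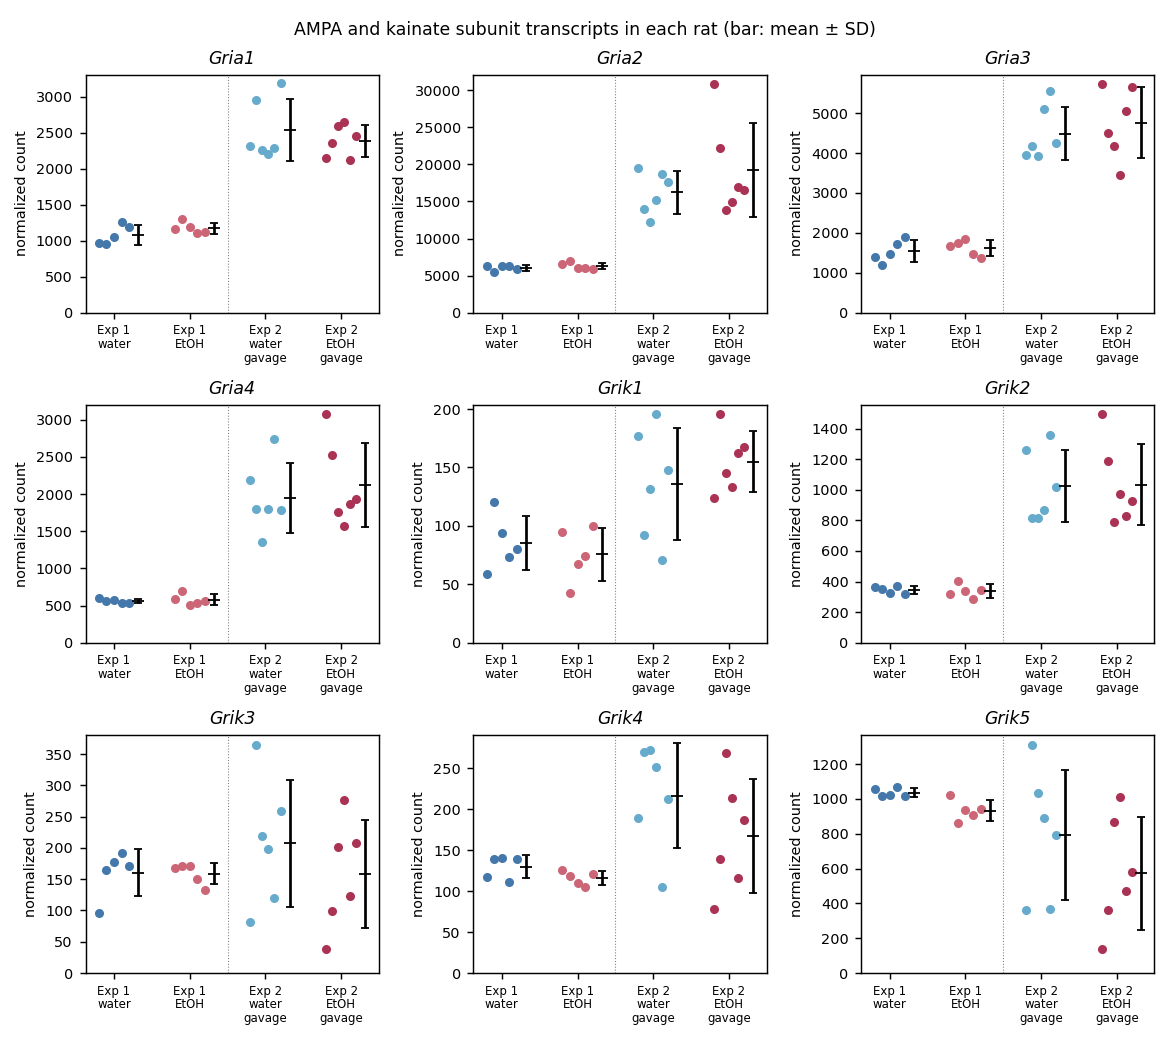
Normalized read count (linear axis from 0) of each AMPA and kainate subunit transcript in each of the 22 rats, by group, with the mean ± SD beside the points (n = 5 per group in experiment 1 and n = 6 in experiment 2). Counts are scaled within each experiment, so heights compare groups within an experiment only. The groups overlap in every panel, and Grik3, Grik4 and Grik5 spread widely among the rats of experiment 2, where Grik5 ran from 136 to 1308.5.

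Experiment 2 asked whether forced EtOH on top of drinking altered expression. No member and no other of the 8655 genes tested had an FDR below 0.05 (0% of genes, and 0 by DESeq2), and 0 of 9 members had an unadjusted P-value under 0.05 in edgeR's quasi-likelihood test, where 1.33% of all genes did, 0.624% with a lower level after EtOH gavage. Of the 9 members 4 had a lower fitted level after EtOH gavage, where 49.9% of all genes did. The point estimates ran from -0.47 for Grik5 to 0.25 for Gria2 on the log2 scale (EtOH gavage minus water gavage). The interval of Grik5, -1.41 to 0.46, spanned both directions by more than its value of -0.15 in experiment 1, so a difference of that size was not detectable here. The groups of no member were fully separated in either experiment, a property of 0.843% of all genes tested in experiment 1 and of 0.0116% in experiment 2.

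Among the AMPA subunits, Gria1 varied least between rats. It had a lowest, median and highest normalized count of 2204, 2303 and 3194 after water gavage and of 2119, 2402 and 2648 after EtOH gavage. The EtOH rats spanned the lower values of both groups, with the highest rat a control, and the log2 fold change was -0.091 (95% interval -0.35 to 0.17). Gria2 had 12261, 16435 and 19534.5 after water gavage and 13913, 16785 and 30853 after EtOH gavage. The medians were close, and EtOH replicates 1 and 2 stood above all other rats. The log2 fold change of 0.25 had an SE of 0.195 and an FDR of 0.675, and it was 0.00515 without the 3 rats with a nongenic share over 54% (EtOH gavage replicates 1 and 2 and water gavage replicate 1), a setting added after seeing the data. Gria3 differed by 0.085 (95% interval -0.22 to 0.39) and Gria4 by 0.12 (95% interval -0.29 to 0.54). For Gria4 the lowest, median and highest counts were 1356, 1801 and 2748 after water gavage and 1572, 1901 and 3074 after EtOH gavage.

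Among the kainate subunits, Grik5 had the largest point estimate. Its lowest, median and highest normalized counts were 361, 842 and 1308.5 after water gavage and 136, 525.8 and 1014 after EtOH gavage. The lowest rat of all was EtOH replicate 1, but water replicates 1 and 5, at 361 and 366, lay among the low EtOH rats. The log2 fold change was -0.47 (SE 0.434, 95% interval -1.41 to 0.46). It was -0.25 without the 3 rats of high nongenic share and 0.20 with the nongenic share as a covariate, so its direction depended on how that share was handled. Grik4 had 105, 232 and 273 after water gavage and 78.1, 163 and 269 after EtOH gavage (log2 fold change -0.38, 95% interval -1.02 to 0.27). Grik3, which encodes GluK3, had 81.0, 209 and 364 after water gavage and 38.5, 163 and 277 after EtOH gavage (log2 fold change -0.39, 95% interval -1.32 to 0.54). With the nongenic share as a covariate Grik4 was at -0.059, and Grik3 was at 0.25.

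Grik2 and Grik1 had values above 0 in this comparison. Grik2, which encodes GluK2, had 817, 943 and 1359 normalized counts after water gavage and 787, 949.7 and 1495 after EtOH gavage. The medians differed little, and the log2 fold change was 0.015 (95% interval -0.39 to 0.42). With the nongenic share as a covariate the value became -0.24 with an unadjusted P-value of 0.0272, the 1 of 9 members below 0.05 under that setting, where 1.87% of all genes were, and no gene had an FDR below 0.05. Grik1, which encodes GluK1, had 70.8, 139.8 and 195 after water gavage and 124, 154 and 196 after EtOH gavage (log2 fold change 0.19, 95% interval -0.33 to 0.70).

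**Figure D2:**
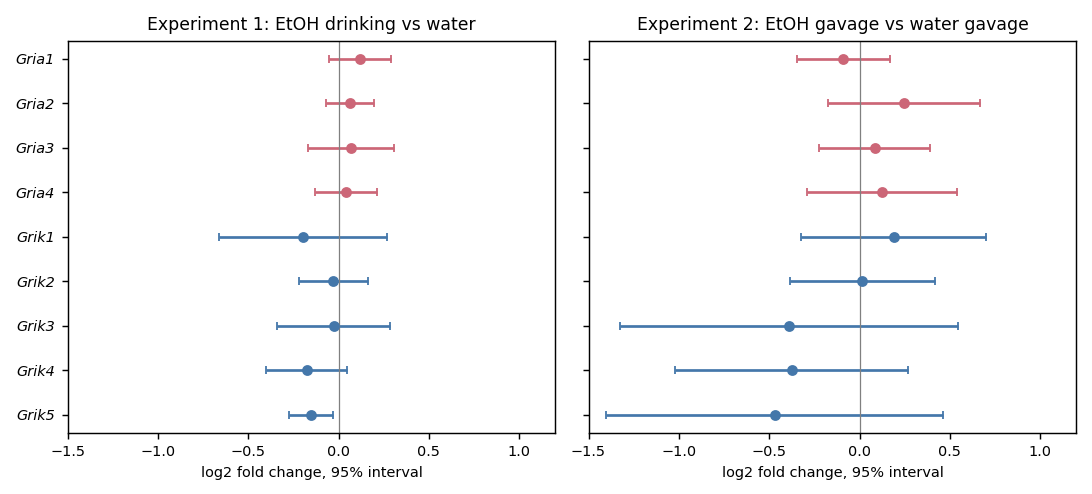
Log2 fold change of each member with its 95% interval from edgeR's quasi-likelihood fit, EtOH against water in experiment 1 (n = 5 per group) and EtOH gavage against water gavage in experiment 2 (n = 6 per group), with AMPA subunits in red and kainate subunits in blue. In experiment 1 the interval of Grik5, from -0.27 to -0.032, is the one that leaves out 0 before adjustment over all genes, and the intervals of Grik3, Grik4 and Grik5 are the widest in experiment 2.

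The effects were also set against each other directly, in 1 fit of all 4 groups with an interaction term. For Grik5 the effect in experiment 2 minus that in experiment 1 was -0.31 on the log2 scale (SE 0.505, FDR 0.834 by edgeR). The difference was 0.37 for Grik1, 0.18 for Gria2, -0.20 for Gria1 and -0.36 for Grik3. No member had an FDR below 0.05, and of the 8176 genes tested 0 did, while 154 had an unadjusted P-value under 0.05. That fit shares 1 estimate of spread between experiments of very different spread, and the controls of experiment 2 drank EtOH.

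Ratios within a library do not depend on its scaling, so the makeup of the receptor transcripts was followed rat by rat. These shares are in counts, which also depend on transcript length, and they are given without a test because they combine chosen members. Gria2 held 67.8%, 66.6%, 66.9%, 64.0% and 61.6% of the AMPA subunit counts in the controls of experiment 1, and 65.7%, 65.0%, 63.0%, 65.97% and 65.8% in the EtOH rats. Means of 65.4% ± 2.55 and 65.1% ± 1.21 (SD, n = 5 each) differed by less than the spread among rats. In experiment 2 the share of Gria2 was 64.1% ± 3.22 after water gavage and 66.6% ± 4.63 after EtOH gavage (SD, n = 6 each), with the 3 highest values, 73.8%, 70.3% and 69.8%, in the 3 rats with the highest nongenic share.

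The log2 ratio of kainate to AMPA subunit counts was -2.38 ± 0.12 in controls and -2.57 ± 0.11 in EtOH rats of experiment 1 (SD, n = 5 each). The groups overlapped, between -2.45 and -2.44. In experiment 2 the ratio was -3.40 ± 0.36 after water gavage and -3.75 ± 0.50 after EtOH gavage (SD, n = 6 each). The high-affinity pair, Grik4 and Grik5, made up 66.4% ± 1.92 of the kainate counts in controls and 64.7% ± 2.08 in EtOH rats of experiment 1. In experiment 2 the same share was 41.2% ± 13.5 after water gavage and 34.2% ± 14.3 after EtOH gavage, and it ran from 11.5% in EtOH replicate 1 to 55.3% in water replicate 2. The makeup of the kainate transcripts thus varied among the rats of experiment 2 by more than it differed between their groups.

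**Figure D3:**
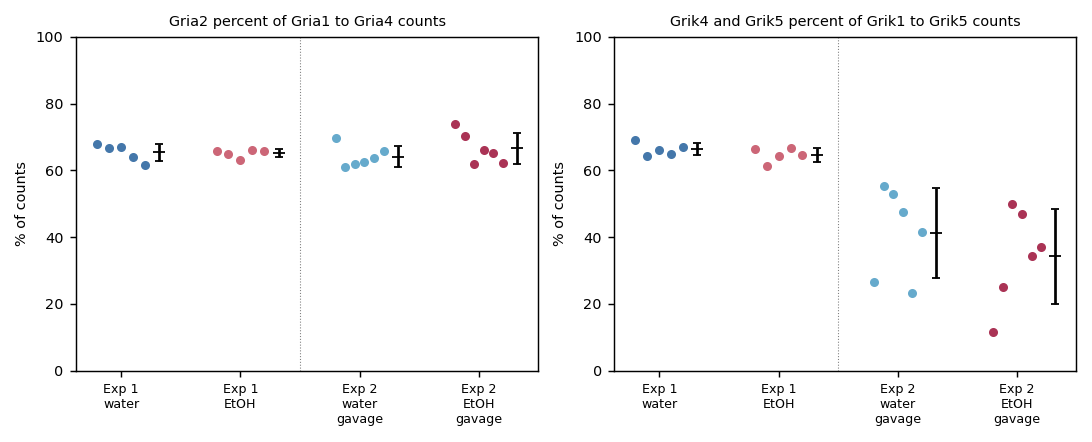
Share of Gria2 in the counts of Gria1 to Gria4 (left) and of Grik4 with Grik5 in the counts of Grik1 to Grik5 (right), in percent, for each rat by group with the mean ± SD. The kainate share lies between 61.4% and 69.2% in all rats of experiment 1 and between 11.5% and 55.3% in those of experiment 2.

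How far the members spread among rats of a group differed between the experiments. In experiment 1 the SD of log2 CPM within groups was 0.067 for Grik5, and 3.42% of all genes tested had a smaller one, against a median of 0.16 over all genes. In experiment 2 the SD of Grik5 was 0.92, and 93.6% of genes had a smaller one, against a median of 0.34. Grik3 had an SD of 0.90 in experiment 2. The highest count of Grik5 was 9.59 times the lowest among the 12 rats, that of Grik3 9.46 times, that of Gria2 2.52 times and that of Gria1 1.51 times. Gria1 was the steadiest member of experiment 2, with an SD of 0.19 that was smaller in 13.3% of genes.

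In experiment 2 the levels of many members moved together from rat to rat, about as often as those of other genes did. Correlations of log2 CPM were computed for all 36 pairs of members after subtraction of group means, with P-values from 100000 permutations within groups and Benjamini-Hochberg adjustment over the 36 pairs. Of these pairs, 16 had an adjusted p under 0.05 for Pearson's r, 7 positive and 9 negative, and for 13 of them Spearman's rho was also below it. All 16 had an absolute r of 0.653 or more, which is 44.4% of the member pairs, and 39.7% of all pairs of tested genes in this experiment had one, so the count is near the background. In experiment 1 the same bound was reached by 3 of the 36 member pairs (8.33%) and by 7.09% of all pairs. Gria2, Gria4 and Grik2 went up and down together, Grik3, Grik4 and Grik5 did so as well, and each of the first 3 ran against each of the second 3.

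The closest pair was Grik3 with Grik5, with a Pearson's r of 0.96 over 12 rats (permutation p = 6e-05, adjusted p = 0.00108) and a Spearman's rho of 0.92 (permutation p = 0.00019, adjusted p = 0.00504). Gria2 and Grik5 had an r of -0.93 (permutation p = 6e-05, adjusted p = 0.00108) and a rho of -0.90 (permutation p = 0.00042, adjusted p = 0.00504). Gria2 and Gria4 had an r of 0.899 (permutation p = 0.00021, adjusted p = 0.00202) and a rho of 0.87 (permutation p = 0.00122, adjusted p = 0.00878). After the 2 rats farthest from the median of the gene named first were left out, r was 0.91, -0.84 and 0.86. All the values of a rat come from 1 library, so these correlations describe libraries as much as receptors. In experiment 1 none of the 36 pairs had an adjusted p under 0.05. The strongest was Gria1 with Gria3 (r = 0.83, permutation p = 0.0127, adjusted p = 0.458, and rho = 0.85, permutation p = 0.00691, adjusted p = 0.249, over 10 rats), with an r of 0.89 without the 2 farthest rats.

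**Figure D4:**
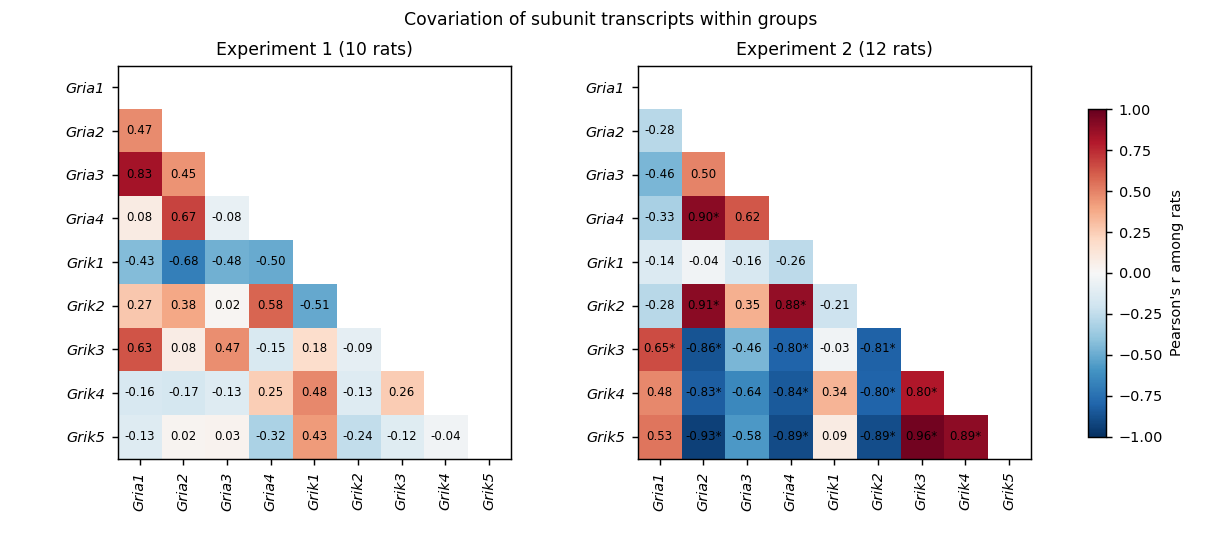
Pearson's r between members in log2 CPM after subtraction of group means, over the 10 rats of experiment 1 and the 12 rats of experiment 2, with an asterisk where the permutation p adjusted over 36 pairs is under 0.05. No pair is marked in experiment 1, and 16 are marked in experiment 2, where Grik3, Grik4 and Grik5 run against Gria2, Gria4 and Grik2.

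The nongenic share was related to Gria2, Gria4, Grik2, Grik3 and Grik5 in experiment 2 by both coefficients, and to Grik4 by Pearson's r alone. The first principal component of this experiment, which held 74.0% of the variance over all tested genes, rose with the nongenic share. It was -49.9 in water gavage replicate 2 (share 46.1%) and 86.5 in EtOH gavage replicate 1 (58.0%), so many other genes may follow the share as well. Relations to this share were not computed for other genes, so whether the members differ from the background is not known. Within groups it had an r of -0.906 with Grik5 (rho = -0.83, permutation p = 0.00021 and 0.00268, adjusted over 9 members 0.00099 and 0.0191), and an r of 0.88 with Gria2 (rho = 0.79, permutation p = 0.00067 and 0.00637, adjusted 0.00191 and 0.0191). Without the 2 rats of most extreme share, r was -0.82 and 0.80. Gria1, Gria3 and Grik1 had coefficients of -0.38, 0.33 and 0.061 with adjusted permutation p-values of 0.306, 0.368 and 0.859. In experiment 1 none of the 9 members had an adjusted p under 0.05 with this share.

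The summed cortical markers of experiment 2 were related to Grik2 by both coefficients, and to Gria2, Gria4, Grik3, Grik4 and Grik5 by Pearson's r alone. Here too, no values over all genes were computed for comparison. In experiment 2 their log2 sum had an r of -0.96 with Grik2 (rho = -0.87, permutation p = 5e-05 and 0.00103, adjusted over 9 members 0.00045 and 0.00927), and -0.91 without the 2 farthest rats. For Grik5 the coefficient was 0.85 (rho = 0.69, permutation p = 0.00336 and 0.0192, adjusted 0.00605 and 0.0609), and 0.67 without the 2 farthest rats. For Gria2, Grik3 and Grik4 the adjusted p of rho was also 0.0609, for Gria4 it was 0.146, and the r of Grik4 went from 0.79 to 0.42 without the 2 farthest rats. Water replicate 5 and EtOH replicate 1, with cortical sums of 5.57 and 5.51 CPM, were the 2 rats with the highest Grik2 and Gria4. The cortical sum and the nongenic share had their extremes in the same rats, so the 2 relations are not separate findings. The lowest sums, 5.51, 5.57, 14.9 and 44.8 CPM, were in EtOH replicate 1, water replicates 5 and 1 and EtOH replicate 2. These rats had the highest nongenic shares, 58.0%, 52.8%, 54.5% and 56.4%. In experiment 1 none of the 9 members had an adjusted p under 0.05 with the cortical sum, Gria3 being the nearest by Pearson's r (r = 0.78, rho = 0.73, permutation p = 0.0203 and 0.0371, adjusted 0.136 and 0.167). Gria3 in that experiment had an r of 0.54 without the 2 farthest rats. The part of either measure in the differences between groups was not tested beyond the covariate fits given.

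**Figure D5:**
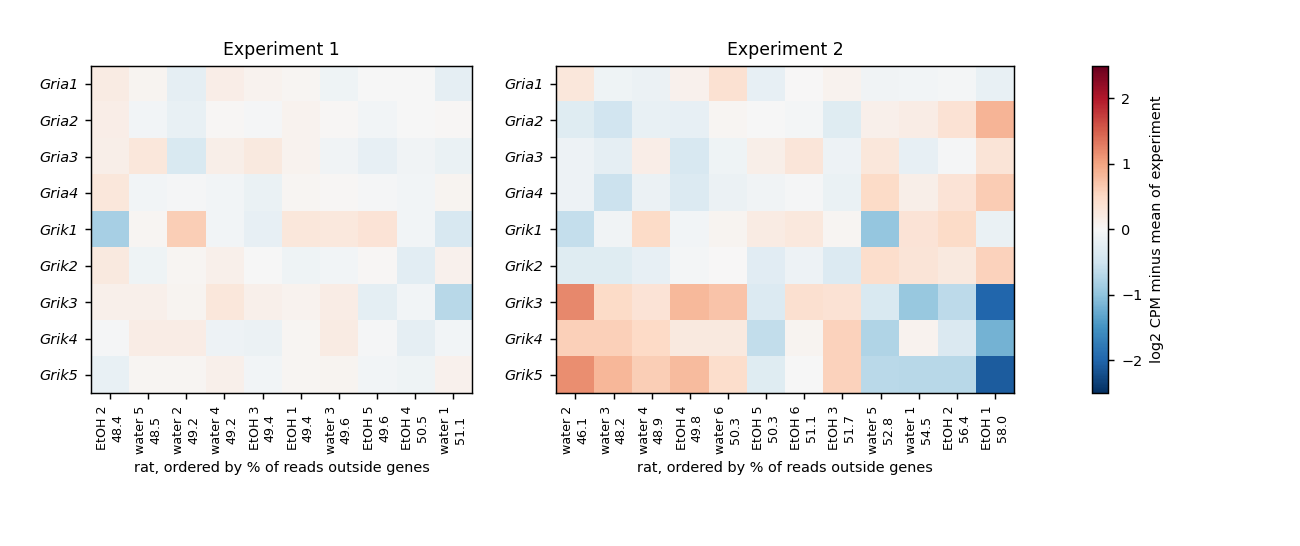
Log2 CPM of each member minus its mean over the experiment (color). Rats of each experiment are in columns ordered by the nongenic share in percent (axis label: reads outside genes), the reads counted to no feature. The share is printed under each rat with its group (EtOH, or water, by gavage in experiment 2) and replicate. From left to right in experiment 2, Grik3, Grik4 and Grik5 pass from above to below their mean and Gria2, Gria4 and Grik2 the other way, whereas experiment 1 shows no such order.

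The closest pair, Grik3 and Grik5, is shown here by its promoter windows in RefSeq (build GRCr8, 250 bases before to 50 after the start of 1 transcript), written 5′ to 3′ with each CG dinucleotide in capitals. The start used for Grik3 is the outer end of the listed gene, and that for Grik5 lies 860 bases inside the listed gene, so other starts are possible.
Grik3 (GRCr8 chr5:143052192-143052491, plus strand): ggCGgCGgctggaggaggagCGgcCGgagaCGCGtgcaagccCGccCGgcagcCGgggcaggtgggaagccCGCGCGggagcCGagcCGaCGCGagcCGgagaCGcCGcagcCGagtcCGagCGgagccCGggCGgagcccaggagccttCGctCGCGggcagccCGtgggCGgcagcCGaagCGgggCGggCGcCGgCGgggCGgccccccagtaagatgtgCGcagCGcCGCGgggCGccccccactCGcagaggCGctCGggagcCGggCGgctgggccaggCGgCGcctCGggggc
Grik5 (GRCr8 chr1:89794860-89795159, minus strand): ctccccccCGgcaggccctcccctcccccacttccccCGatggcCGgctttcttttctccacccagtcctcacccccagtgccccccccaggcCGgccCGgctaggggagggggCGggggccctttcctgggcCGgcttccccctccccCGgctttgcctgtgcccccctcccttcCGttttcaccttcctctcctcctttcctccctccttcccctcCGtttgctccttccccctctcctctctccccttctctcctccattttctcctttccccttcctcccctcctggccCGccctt

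Grik3 had 82.3% G or C and 49 CG dinucleotides in this window, more than 99.1% of the 33469 windows of the table, whose median was 7, and Grik5 had 69.0% and 11 CG. The letters GGGCGG, counted on both strands, occurred 6 times in the window of Grik3 and 2 times in that of Grik5, while 33.1% of all windows held them at least 1 time. A match of letters is a description of the window and not a binding site. A window was also listed for Gria4, Grik1, Grik2 and Grik4, and that of Grik4 lies 126688 bases inside the listed gene and was not used.

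AMPA and kainate receptors work with auxiliary subunits, scaffold proteins and editing enzymes, which were followed as a list of 31 partner genes. Of these, 28 were listed and 24 tested in experiment 1, where 8 had a higher and 16 a lower value in EtOH rats. An unadjusted P-value under 0.05 was found for 0 of the 24, against 5.58% of all genes tested. The median log2 fold change of the partner genes tested was -0.028, against -0.00118 over all genes tested. The lowest P-values were those of Adarb1, which encodes the enzyme that edits the Gria2 transcript (log2 fold change -0.13, unadjusted P-value 0.106), Cacng4, which encodes a transmembrane AMPA receptor regulatory protein (TARP) (-0.27, 0.119), and Syndig1, which encodes a protein that binds AMPA receptors at developing synapses (-0.23, 0.134). The FDRs of these 3 genes in edgeR's quasi-likelihood test were 0.898 to 0.911.

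In experiment 2, 22 partner genes were tested, 5 with a higher and 17 with a lower value after EtOH gavage, with a median log2 fold change of -0.17 against 0.000885 over all genes. All 5 TARPs tested had lower values, from -0.71 for Cacng8 to -0.11 for Cacng2. EtOH replicate 1, the rat with the highest nongenic share, had the lowest count of all 12 rats for Cacng2, Cacng4, Cacng7 and Cacng8. With the nongenic share as a covariate Cacng2, Cacng7 and Cacng8 were at 0.28, 0.12 and 0.21, and Cacng3 and Cacng4 at -0.20 and -0.14. Of all genes tested, 1.33% had an unadjusted P-value under 0.05, and 0.624% had one with a lower level after EtOH gavage. Cacng3, which encodes TARP γ-3, was the 1 of 22 partner genes tested with such a P-value. Water-gavaged rats had 514 ± 103 normalized counts and EtOH-gavaged rats 389 ± 85.9 (SD, n = 6 each), and the log2 fold change was -0.40 (SE 0.181, FDR 0.675 by edgeR). The exact permutation test of this gene alone gave p = 0.0584, and the unadjusted P-value was 0.155 with the nongenic share as a covariate and 0.0165 without the 3 rats of high share, in edgeR fits in which no gene had an FDR below 0.05. In the exact test 6 rats against 6 can reach 0.00216. Cacng4 (log2 fold change -0.51) and Pick1 (-0.44), which encodes a protein that takes AMPA receptors off the membrane, had the next lowest P-values, 0.123 and 0.138, and the same FDR. Of the 9 NMDA and delta subunits, the related glutamate receptor genes, 8 were tested in experiment 1 and 7 in experiment 2. In either experiment 0 of them had an unadjusted P-value under 0.05, against 5.58% and 1.33% of all genes tested.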

How the data were processed

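Per the study's methods, polyA+ libraries were made without strand information in experiment 1 and with it in experiment 2, and paired reads were aligned to rn6 with TopHat2 (2.0.13 per the submitters' processing notes). The authors deposited raw read counts per gene from htseq-count. Its options and the annotation release were not given in the sources used here. The gene counts hold no reads with more than 1 alignment, and without strand, reads from a gene and an overlapping antisense gene cannot be told apart.

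Groups and replicate numbers came from the sample titles. Each experiment was fitted on its own in edgeR 4.0.16 (R 4.3.3) with TMM, glmQLFit in legacy mode and glmQLFTest, over genes whose base mean exceeded the median (43.6 in experiment 1, 66.4 in experiment 2), with Benjamini-Hochberg adjustment over all genes tested. Standard errors were derived as the absolute fold change over the root of F. Log2 CPM used a prior count of 2. The nongenic share is the reads counted to no feature over those plus the reads assigned to genes. The 5 summary lines of each file stayed out of library sizes. The rats were housed singly per the study's methods, and nothing says whether those of a group shared litters. Alternatives were DESeq2 1.42.0, its size factors, the newer mode of glmQLFit, no filter, at least 10 counts in every sample, all 4 groups in 1 fit, a replicate block, the first principal component or the nongenic share as a covariate, and fits lacking 1 rat at a time. Genes named were all members, partner genes with an unadjusted P-value under 0.05 or among the 3 lowest of an experiment, and the gene most like each member. Cell type markers were named as well. Some with an unadjusted P-value under 0.05 were named after their values were seen, and others with such a P-value were only counted. The members and gene lists were chosen with earlier results of these data known. The fits were tested on simulated data in which each gene was drawn on its own. That test does not cover variation shared among genes, as seen in experiment 2. The counts carry counting error that falls with depth, and intervals of the fits include the spread among rats.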

Additional observations from a re-analysis of the deposited data

Results flagged for a closer look

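A value far from the rest of its group was looked for in 52 groups of 5 or 6 rats, over the normalized counts of the members and the subunit ratios. About 2.6 groups would be marked by chance and 2 were, both in the water controls of experiment 1. Grik3 had 96.4 normalized counts in replicate 1, while the other 4 controls had 165 to 192, and the gap was 0.73 of that group's range. Without that rat the log2 fold change of Grik3 was -0.15 in place of -0.026, with an FDR of 0.960 in edgeR's quasi-likelihood test. The log2 ratio of kainate to AMPA subunit counts was -2.18 in replicate 2, while the other 4 controls had -2.45 to -2.41, and the gap was 0.85 of the range. Without that rat the difference between the groups was -0.14 in place of -0.19.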

How the results depend on the processing

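No member and no other gene reached an FDR under 0.05 under any setting, DESeq2 and each rat left out included. Direction was kept in 163 of 171 alternative values of the members in experiment 1 and in 179 of 198 in experiment 2, and the values that changed sign follow. With the first principal component as covariate, values in experiment 1 were -0.027 for Gria3 and 0.060 for Grik2, and in experiment 2 -0.021 for Gria2, -0.11 for Gria4, -0.19 for Grik2, 0.13 for Grik3 and 0.063 for Grik5. With the nongenic share as covariate, values in experiment 2 were -0.053 for Gria2, -0.14 for Gria4, -0.24 for Grik2, 0.25 for Grik3 and 0.20 for Grik5. Without the 3 rats of nongenic share over 54%, chosen after seeing the data, they were -0.00489 for Gria3, -0.088 for Gria4 and -0.15 for Grik2. The cause was not tested.

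Leaving out each rat in turn gave ranges that cross 0 for Gria3 (-0.00916 to 0.16), Gria4 (-0.036 to 0.087), Grik2 (-0.10 to 0.027) and Grik3 (-0.15 to 0.035) in experiment 1, and for Gria4 (-0.00842 to 0.25) and Grik2 (-0.11 to 0.11) in experiment 2. Ranges in experiment 2 that kept their sign but moved by over 1.5 times were -0.13 to -0.014 for Gria1, 0.064 to 0.33 for Gria2, 0.027 to 0.16 for Gria3, 0.056 to 0.32 for Grik1, -0.63 to -0.16 for Grik3, -0.56 to -0.22 for Grik4 and -0.71 to -0.26 for Grik5. Members with an unadjusted P-value under 0.05 numbered 1 in experiment 1, 0 with the first component as covariate or with all 4 groups in 1 fit, and 1 to 2 with each rat left out, 2 being reached without water replicate 4 through Gria1. The shares of all genes were 4.34% with the first component, 0.913% with all 4 groups and 4.47% without water replicate 4. In experiment 2 they numbered 0, 1 with the nongenic share as covariate (1.87% of all genes) and 0 to 0 with each rat left out. With each rat left out, the genes called stayed at 0 to 0 in both experiments.

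The difference in the share of Gria2 ranged from -1.24 to 0.32 percentage points in experiment 1 and from 1.07 to 3.64 in experiment 2 as rats were left out. The same ranges were -0.22 to -0.14 and -0.48 to -0.20 for the log2 ratio of kainate to AMPA counts, 0.00315 to 0.10 and -0.40 to -0.11 for that of Gria1 to Gria2, and -2.16 to -0.85 and -10.5 to -2.41 percentage points for the share of Grik4 and Grik5. A replicate block from the labels' numbers gave 0 genes called in either experiment, log2 fold changes of -0.154 and -0.55 for Grik5 in experiments 1 and 2, and changed no call, while the genes with an unadjusted P-value under 0.05 went from 483 to 476 in experiment 1 and from 115 to 414 in experiment 2. With all 4 groups in 1 fit these were 79 and 623. In experiment 2 they were 776 without water replicate 1, 768 without EtOH replicate 4, and 30 to 74 without water replicate 2, 3, 4 or 6 or EtOH replicate 1 or 2. In experiment 1 they were 739 without water replicate 5. The labels do not say whether same-numbered rats were paired, and the values do not settle it. Same-numbered rats correlated above 0.1 in 1 of 5 pairs in experiment 1 and 4 of 6 in experiment 2. Of these pairs, 1 and 0 were best matched to their own number. Counts per kb of transcript were not run, because no transcript lengths were given.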

Other observations

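For each member, the tested gene with the most similar pattern over the rats of an experiment was found by the mean absolute difference of log2 CPM, centered on group means and divided by its SD, over the 8646 tested genes that are no members. The values describe likeness among 10 or 12 libraries and were chosen as the smallest of many. In experiment 2, Grik5 was most like Arhgap39 (0.085, where the median gene was at 1.13), Grik3 most like Osbp2 (0.11), Grik2 most like Cep295 (0.15), Gria2 most like Slc35f1 (0.17), Gria4 most like Lrrc4c (0.17), Grik4 most like Rps6ka2 (0.19) and Gria3 most like Immt (0.21). Grik1, with Sphkap (0.34), and Gria1, with Supt6h (0.38), had no gene as close. In experiment 1 the distances were 0.19 to 0.27. The most similar genes there were R3hdm1 for Gria1, RGD1563349 for Gria2, Galnt14 for Gria3, Shroom2 for Gria4, Caskin1 for Grik1, Vps53 for Grik2, Irgq for Grik3, Abhd11 for Grik4 and Atp5a1 for Grik5. No member had the same nearest gene in both experiments.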
